A study of Mus musculus with 2 samples.

Results

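The Hox cluster genes were described in RNA of PB and PB-TERRA mESCs. They were taken as every gene of the deposited table whose symbol is Hox, a cluster letter from a to d and a number. This gave 35 of the 18888 genes listed, and 34 of them are described. Annotated Hox genes that are not listed, such as Hoxa6 and Hoxd3, are not covered. Both samples were 46C mESCs at passages 21 to 24, grown on gelatin without feeder cells being named. PB mESCs carried the empty PiggyBac vector, and PB-TERRA mESCs carried the same vector expressing polyadenylated TERRA, the telomeric repeat RNA. Each condition was sequenced as 1 library, so no difference below has a replicate check and no p-value is given. Whether either line was 1 clone or a pool of transfected cells is not stated in the sources used here.

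Hox genes encode homeodomain transcription factors that set positional identity along the head-to-tail axis of the embryo. In the mouse they lie in 4 clusters, and genes in the same place in different clusters form 13 paralogue groups, numbered from the end that is expressed first and most anteriorly. In undifferentiated mESCs the clusters are known as targets of Polycomb repression and as bivalent chromatin, held nearly silent until signals such as retinoic acid or Wnt open them from the low-numbered end. The clusters lie on chromosomes 6 (Hoxa), 11 (Hoxb), 15 (Hoxc) and 2 (Hoxd), and 9 genes of Hoxa, 10 of Hoxb, 7 of Hoxc and 8 of Hoxd are described.

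Promoters are shown for 3 genes of the Hoxd cluster, because Hoxd8 and Hoxd9 had the largest log2 ratios of FPKM + 0.1 among the 34 genes and Hoxd11 lay at the lowest listed value in both libraries. Each line holds the 250 bases before the start of the gene in RefSeq on GRCm38.p6, on the + strand, with every CG dinucleotide in capitals. The windows are chr2:74704365-74704614 for Hoxd8, chr2:74697513-74697762 for Hoxd9 and chr2:74679308-74679557 for Hoxd11.
Hoxd8: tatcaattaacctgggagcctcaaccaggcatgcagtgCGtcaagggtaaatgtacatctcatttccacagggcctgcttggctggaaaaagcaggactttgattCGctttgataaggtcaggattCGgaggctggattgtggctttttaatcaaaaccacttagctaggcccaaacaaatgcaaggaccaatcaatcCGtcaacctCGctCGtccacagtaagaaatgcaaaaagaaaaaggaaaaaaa
Hoxd9: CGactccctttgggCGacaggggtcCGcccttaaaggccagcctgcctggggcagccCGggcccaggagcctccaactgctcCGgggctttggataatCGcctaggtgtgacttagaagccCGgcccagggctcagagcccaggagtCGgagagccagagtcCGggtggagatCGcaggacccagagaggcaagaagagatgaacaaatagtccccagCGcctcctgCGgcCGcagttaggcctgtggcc
Hoxd11: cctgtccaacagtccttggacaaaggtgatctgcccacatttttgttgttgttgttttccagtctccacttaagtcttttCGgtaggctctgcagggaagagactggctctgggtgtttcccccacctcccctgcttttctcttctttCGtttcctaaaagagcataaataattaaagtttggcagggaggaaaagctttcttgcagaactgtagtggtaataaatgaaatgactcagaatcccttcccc
The Hoxd9 window holds 13 CG dinucleotides, that of Hoxd8 holds 6 and that of Hoxd11 holds 2. A promoter was matched by symbol for 20 of the 34 genes, with a median of 11 CG dinucleotides (2 in Hoxd11 to 35 in Hoxa13), beside a median of 6 over 27025 genes. Searched on both strands, the letters TATAAA were found in 3 of the 20 windows (12.97% of all promoters), TTTATG in 4 (11.1%) and TGATNNAT in 3 (7.91%). None of these motifs occurs in the windows of Hoxd8 or Hoxd9, and that of Hoxd11 holds TTTATG. Windows with few and with more CG dinucleotides thus occurred within the Hoxd cluster. The order of the ratios depends on the constant added, and with 0.01 FPKM added Hoxa9 and Hoxb1 (both 2.46), Hoxd4 (2.17) and Hoxb7 (1.91) came before Hoxd9 (1.84), and Hoxc12 (1.81), Hoxb8 and Hoxd1 (both 1.58) were among those before Hoxd8 (1.53).

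Values are FPKM, a fragment count divided by gene length and library depth, given to 2 decimals and never under 0.01, called the floor here. Low FPKM values were whole multiples of what 1 read is worth for 85.3% of 1126 low values in PB and 88.2% of 1224 in PB-TERRA, where 24.0% and 23.9% would fit by rounding alone. This allowed the reads behind each value to be estimated from FPKM and gene length, 24769713 in PB against 24921772 in PB-TERRA over all genes. For Hox genes, which were 843 to 3366 bases long, 1 read was worth 0.0124 to 0.0555 FPKM in PB. The fit used genes of 300 to 1500 bases, and 28 of the 34 Hox genes are longer, so their reads rest on an extrapolation of it. All intervals of reads are exact 95% intervals that cover counting error only, not the spread between cultures.

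Hox genes were close to silent in both libraries. Their median level was 0.04 FPKM in PB and 0.085 FPKM in PB-TERRA, and the 34 genes together held 168 reads in PB (95% Poisson interval 144 to 195) and 283 in PB-TERRA (251 to 318). At least 0.1 FPKM was reached by 11 genes in PB against 16 in PB-TERRA. In contrast, the pluripotency factor Pou5f1 had 745 and 773 FPKM. Of the 34 genes only Hoxc13 reached 1 FPKM, in PB-TERRA, and 26 of them rested on fewer than 10 reads per library.

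At the floor were 9 of the 34 Hox genes in PB (26.5%, exact binomial interval 12.9% to 44.4%) and 4 in PB-TERRA (11.8%, 3.30% to 27.5%). Both intervals overlap, and they count genes, which are not independent replicates. They cover listed genes only, and whether genes without reads in either library were left out of the list is not known. Over all 18888 genes the floor was listed for 5.91% in PB against 5.28% in PB-TERRA. Among the 6625 genes under 1 FPKM in both libraries, the level at which most Hox genes lie, the shares were 16.6% and 15.0%. Under 0.05 FPKM were 17 Hox genes in PB and 9 in PB-TERRA, beside 11.7% and 11.3% of all genes and 33.3% and 32% of the genes under 1 FPKM.

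The genes at the floor in PB alone were Hoxa9, Hoxb1, Hoxb5, Hoxc12, Hoxd1, Hoxd4, Hoxd10 and Hoxd12, which is 8 genes beside 4.47% of all genes. Those at the floor in PB-TERRA alone were Hoxb3, Hoxb6 and Hoxc11, which is 3 genes beside 3.83% of all genes, and Hoxd11 was at the floor in both. The shares of all genes are a low background for both counts, because the floor is more common at the level of most Hox genes. At that level 1103 of 6625 genes were at the floor in PB and 991 in PB-TERRA, and both counts include 273 genes at the floor in both. In the Hoxd cluster 5 of 8 genes were at the floor in PB and 1 of 8 in PB-TERRA, whereas Hoxb had 2 of 10 and Hoxc 1 of 7 in each library. In Hoxa it was 1 of 9 in PB and 0 of 9 in PB-TERRA. For Hoxa9, Hoxb3 and Hoxd11 the genes are so long that 1 read would also be listed as 0.01, so for these 3 genes the floor does not tell 0 reads from 1. Of the genes at the floor in PB alone, the others than Hoxa9, Hoxb1 and Hoxd4 had 1 or 2 reads in PB-TERRA, which is under the 3 reads that a count of 0 allows.

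**Figure D1:**
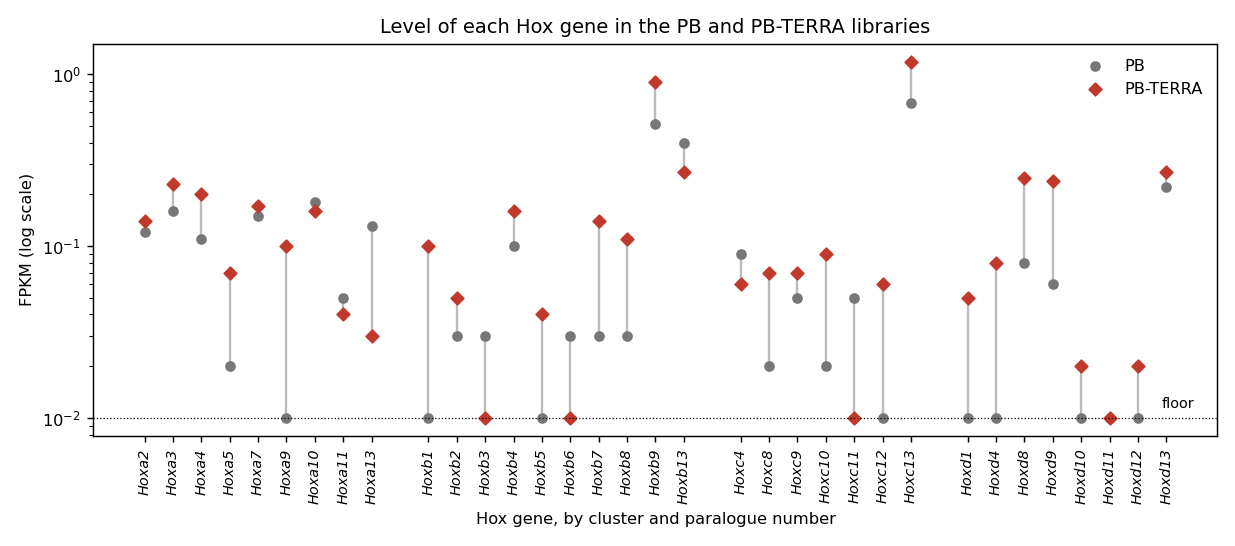
FPKM of each of the 34 Hox genes (log scale) in PB (grey circles) and PB-TERRA (red diamonds), ordered by cluster and paralogue number, with a grey line joining both values and the floor of 0.01 FPKM dotted. Hoxb9 and Hoxc13 stand above the rest of their clusters, and 25 genes were higher and 8 lower in PB-TERRA.

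Summed over genes, every cluster had a higher value in the PB-TERRA library. The Hoxa sum was 0.93 FPKM in PB against 1.14 in PB-TERRA. It rested on 43 and 56 reads, a log2 ratio of reads of 0.37 (95% interval -0.23 to 0.98). The Hoxb sum was 1.18 and 1.79 FPKM, from 58 and 96 reads (0.72, 0.23 to 1.21). The Hoxc sum was 0.92 and 1.54 FPKM, from 48 and 83 reads (0.78, 0.25 to 1.32). The Hoxd sum was the smallest, 0.41 and 0.94 FPKM, from 19 and 48 reads, and its ratio was the highest of the 4 (1.33, 0.53 to 2.18). The intervals of Hoxb, Hoxc and Hoxd lay above 0 and that of Hoxa included 0, but all 4 overlapped one another, so an order of the ratios was not detectable at this depth. Over the 34 genes the sum was 3.44 FPKM in PB against 5.41 in PB-TERRA, a log2 ratio of FPKM of 0.64 and of reads of 0.74 (0.46 to 1.03), or 1.67-fold in reads (1.38 to 2.04). Over all genes under 1 FPKM in both libraries, the log2 ratio of the summed reads was 0.04 (0.03 to 0.05). In bulk RNA, more cells with Hox transcripts and more Hox RNA per cell cannot be told apart.

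**Figure D2:**
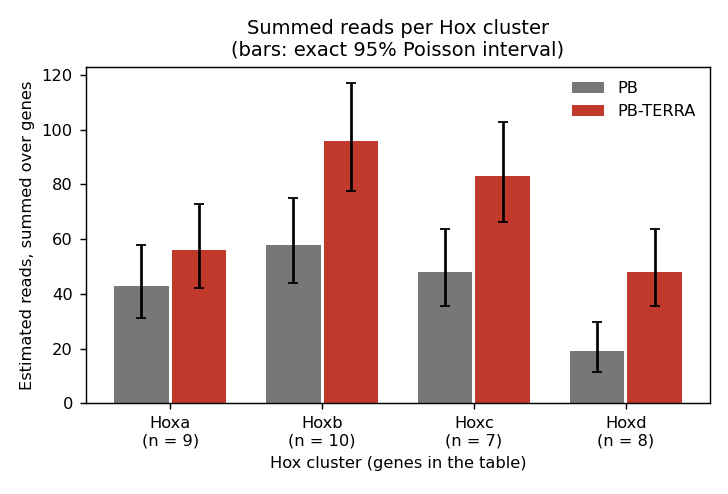
Estimated reads summed over the genes of each Hox cluster in PB (grey) and PB-TERRA (red), with exact 95% Poisson intervals as error bars. Hoxb had the most reads (58 and 96) and Hoxd the fewest (19 and 48), and the PB-TERRA bar is taller in each cluster.

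In Hoxb and Hoxc, 1 gene made up a large share of the sum. Hoxc13 made up 73.9% of the summed FPKM of Hoxc in PB against 76.6% in PB-TERRA, and Hoxb9 43.2% and 50.3% of Hoxb. Without Hoxb9 the Hoxb sum had 25 and 38 reads (0.59, -0.17 to 1.38), and without Hoxc13 the Hoxc sum had 9 and 15 reads (0.73, -0.56 to 2.10). Both intervals included 0. In Hoxd the highest gene in PB was Hoxd13, with 53.7% of the sum in PB against 28.7% in PB-TERRA. The other 7 genes of that cluster had 6 and 32 reads together (2.41, 1.13 to 3.95), so that here the interval stayed above 0 without the highest gene. With Hoxb9 and Hoxc13 left out, the remaining 32 genes had 96 and 157 reads (0.70, 0.32 to 1.08).

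Hoxc13, a regulator of hair and nail keratins, was the most abundant of the 34 genes. It had 0.68 FPKM in PB against 1.18 in PB-TERRA, from 39 and 68 reads (log2 ratio of reads 0.79, 0.20 to 1.40). Hoxb9, which takes part in patterning of the thorax, followed with 0.51 and 0.90 FPKM, from 33 and 58 reads (0.80, 0.16 to 1.47). Both genes were higher in PB-TERRA beyond counting error, and no annotated gene overlaps either of them. For 16 of the 34 Hox genes the annotated span, introns included and on either strand, overlaps another gene. Some of their reads may belong to the overlapping gene, and the library kit is not stated to keep strand.

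Hoxb1, which patterns the hindbrain, had 0.01 and 0.10 FPKM, from 0 and 5 reads, and the interval of its log2 ratio of reads began at -0.14 and so included 0. Hoxd1 had 0.01 and 0.05 FPKM, from 0 and 2 reads.

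In the Hoxd cluster, whose distal genes pattern the limbs, Hoxd8 had 0.08 FPKM in PB against 0.25 in PB-TERRA, from 3 and 11 reads (log2 ratio of reads 1.87, -0.06 to 4.35). Its neighbour Hoxd9 had 0.06 and 0.24 FPKM, from 3 and 12 reads (1.99, 0.10 to 4.46). Hoxd4 had 0.01 and 0.08 FPKM, from 0 and 5 reads, with an interval that also began at -0.14. Hoxd13, the gene at the far end of the cluster, had 0.22 and 0.27 FPKM, from 13 and 16 reads (0.29, -0.86 to 1.47). Hoxd10 and Hoxd12 had 0 reads in PB against 1 in PB-TERRA. Of the 8 Hoxd genes, 7 were higher and 0 lower in PB-TERRA, but only the interval of Hoxd9 excluded 0.

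In the Hoxa cluster, Hoxa9 had 0.01 FPKM in PB against 0.10 in PB-TERRA. It is known for its role in blood progenitors and leukaemia. Its reads were 0 and 7, and the interval of its log2 ratio of reads began at 0.52, but with 1 read in PB it was -0.16 to 8.29. Hoxa3 had 0.16 and 0.23 FPKM (10 and 14 reads), Hoxa4 0.11 and 0.20 (4 and 7 reads) and Hoxa2 0.12 and 0.14 (5 and 6 reads), all within counting error. Hoxa7 had 0.15 and 0.17 FPKM and Hoxa10 had 0.18 and 0.16 FPKM. Hoxa13, which patterns digits and the urogenital tract, had 0.13 and 0.03 FPKM, from 4 reads in PB against 1 in PB-TERRA, and its interval included 0 (-7.63 to 1.33). Hoxa5, at 0.02 and 0.07 FPKM, and Hoxa11, at 0.05 and 0.04, had at most 3 reads in either library.

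Of the remaining Hoxb genes, Hoxb4, known for its use in expanding blood stem cells, had 0.10 and 0.16 FPKM (6 and 10 reads). Hoxb7 had 0.03 and 0.14 FPKM (1 and 4 reads) and Hoxb8 had 0.03 and 0.11 FPKM (2 and 7 reads). Hoxb13, known for its role in the prostate, was an exception among the better detected genes, with 0.40 FPKM in PB against 0.27 in PB-TERRA. Its reads were 12 and 8 (log2 ratio of reads -0.59, -2.09 to 0.82), a difference within counting error. Hoxb2, Hoxb3, Hoxb5 and Hoxb6 had at most 2 reads in either library. In Hoxc, the genes Hoxc4, Hoxc8, Hoxc9, Hoxc10, Hoxc11 and Hoxc12 lay at 0.09 FPKM or less in both libraries and had 4 reads or fewer.

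**Figure D3:**
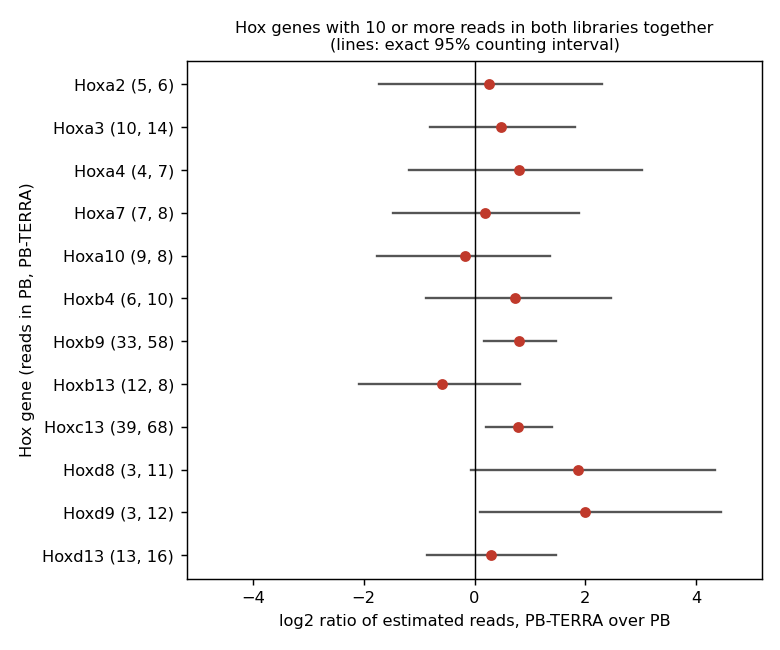
Log2 ratio of estimated reads, PB-TERRA over PB, for the 12 Hox genes with 10 or more reads in both libraries together, with exact 95% counting intervals as lines and the reads of PB and PB-TERRA in brackets. The intervals of Hoxb9, Hoxc13 and Hoxd9 lie above 0, and those of Hoxa10 and Hoxb13, whose points lie below 0, include 0.

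Counted gene by gene, 25 of the 34 Hox genes (73.5%) were higher and 8 (23.5%) lower in PB-TERRA, where over all genes 47.6% were higher and 47.6% lower. Hoxd11 was listed at the same value in both. Among the 33 Hox genes under 1 FPKM in both libraries, 24 (72.7%) were higher and 8 (24.2%) lower, beside 45.7% and 41.5% of all genes at that level. Their median log2 ratio of FPKM + 0.1 was 0.34, and that over the 34 genes was 0.35, beside a median of 0 over all rows of the table. The interval of the read ratio lay above 0 for 4 Hox genes, Hoxa9, Hoxb9, Hoxc13 and Hoxd9, and below 0 for 0. This is 11.8% of the 34 genes, close to the 12.9% of all genes, most of which have far more reads. Among genes under 1 FPKM it was 3 of 33 Hox genes (9.09%) beside 2.99% of all such genes, and 2 of 33 (6.06%) with 1 read given to Hoxa9 in PB. An interval below 0, found for 0 Hox genes, was found for 156 of 6625 genes at this level and for 12.2% of all genes. A log2 ratio of FPKM + 0.1 of at least 1 was reached by 0 Hox genes past the filter of 1 FPKM, which Hoxc13 alone passed, where 0.913% of the 12263 genes past the filter reached it in either direction. Without the filter it was reached by Hoxd9 alone (1.09), beside 1.39% of all genes higher by that much and 1.34% lower. With 0.01 FPKM added in place of 0.1, a setting chosen after seeing the data, 13 Hox genes were higher by that much, beside 6.14% of all genes and 16.6% of those under 1 FPKM in both libraries. At this setting 4 Hox genes, Hoxa13, Hoxb3, Hoxb6 and Hoxc11, were lower by that much, beside 5.45% and 14.5%.

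By paralogue group, the last group held the most reads of those described, 68 in PB against 93 in PB-TERRA (log2 ratio of reads 0.44, -0.02 to 0.92). Group 9, which includes Hoxb9, had 38 and 80 reads (1.06, 0.49 to 1.66), and all 4 of its genes were higher in PB-TERRA. Group 8 had 6 and 22 reads (1.87, 0.52 to 3.46), and all 3 of its genes were higher. Groups 2, 3, 4, 5, 7 and 10 had 25 reads or fewer in either library, and their intervals included 0. Group 11 was lower in sum, with 4 and 2 reads, and groups 6 and 12 had at most 2 reads in either library. Hoxb1 and Hoxd1 of group 1 had 0 and 7 reads together, and the interval of their ratio began at 0.52. Grouped by position, the 10 anterior genes (1 to 4) had 32 and 54 reads (0.75, 0.09 to 1.42), the central genes (5 to 8) 16 and 39 (1.28, 0.40 to 2.21) and the posterior genes (9 to 13) 120 and 190 (0.65, 0.32 to 0.996). The 3 intervals overlapped, so a gradient from the anterior to the posterior end was not detectable at this depth.

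Of 13 noncoding RNAs in or beside the clusters that were looked for, 6 are listed, and 1 of these was well detected. Hotair, Hottip, Hoxaas3, Hoxb3os, Hoxb5os, Hoxb9os and Hoxd4os were not found by symbol. Halr1, a noncoding gene beside the Hoxa cluster, had 20.11 FPKM in PB against 27.87 in PB-TERRA, from 1001 and 1396 reads (log2 ratio of reads 0.47, 0.35 to 0.59). Its level was thus about that of an expressed gene, in contrast to the Hox genes described. The other listed RNAs were at the limit of detection. Mira had 0.30 and 0.12 FPKM from 5 and 2 reads. Hotairm1 had a log2 ratio of FPKM + 0.1 of 1.83 on 0 and 1 reads, and Hoxa11os, Hoxaas2 and Hoxd3os1 had at most 2 reads in either library.

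Genes flanking the clusters had a smaller ratio than the Hox genes, and both intervals did not overlap. Of 23 such genes 16 were higher and 7 lower, with a median log2 ratio of FPKM + 0.1 of 0.08 and a log2 ratio of the summed reads of 0.07 (0.05 to 0.08). Hnrnpa1, an RNA-binding protein gene beside Hoxc, was the most abundant, with 429.83 and 454.29 FPKM. Skap2, beside Hoxa, had 16.41 and 19.04 FPKM, while Mtx2, beside Hoxd, had 35.60 and 31.32 FPKM. Evx1, the homeobox gene at the far end of Hoxa, had 0.38 and 0.41 FPKM from 26 and 28 reads (0.10, -0.73 to 0.93). Skap1, beside Hoxb, had a log2 ratio of FPKM + 0.1 of -1.0, with 0.14 and 0.02 FPKM from 7 and 1 reads (interval of the read ratio -8.31 to 0.14), and did not pass the filter.

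ParaHox genes, the sister family of the Hox genes, showed a ratio of similar size in their sum. Cdx1 made up 70.8% of their summed FPKM in PB against 69.4% in PB-TERRA. Of 6 genes 5 were higher, with 256 reads in PB against 432 in PB-TERRA (log2 ratio of summed reads 0.75, 0.52 to 0.97). Cdx1, a direct activator of Hox genes that responds to Wnt and retinoic acid, had 4.29 and 7.04 FPKM (0.71, 0.44 to 0.99), and Cdx2, which acts likewise, had 1.19 and 2.13 FPKM (0.84, 0.37 to 1.32). Cdx4 had 0.30 and 0.27 FPKM, from 11 and 10 reads. Pdx1, known from pancreas development, had 0.03 and 0.17 FPKM, from 1 and 5 reads. Of 89 homeobox genes outside both families, 47 were higher and 35 lower, with a median log2 ratio of FPKM + 0.1 of 0.07 and a log2 ratio of summed reads of 0.08 (0.02 to 0.15). That interval did not overlap that of the Hox genes, whereas the intervals of ParaHox and Hox genes overlapped. At the floor were 9 of these 89 genes in PB against 6 in PB-TERRA.

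Partners of Hox genes had a sum close to equal in both libraries, and regulators had a slightly higher sum in PB-TERRA. Some single genes had larger ratios. Of the TALE homeodomain partners Meis, Pbx and Pknox, 4 of 9 were higher and 5 lower, and the log2 ratio of their summed reads was -0.04 (-0.10 to 0.02). Pbx2 was the highest with 27.24 and 26.13 FPKM. Meis1, a partner of Hoxa9, had 0.19 and 0.47 FPKM, from 16 and 39 reads (1.28, 0.40 to 2.21). Among 24 genes that regulate Hox transcription, which include the 3 Cdx genes, 19 were higher and 5 lower, with a median log2 ratio of FPKM + 0.1 of 0.11 and a log2 ratio of summed reads of 0.11 (0.10 to 0.13). The interval lay above 0 for 14 of them and below 0 for 1, beside 12.9% above and 12.2% below 0 of all genes. Of the 24 genes 18 passed the filter, and among all genes past it these shares were 18.2% and 17.6%. Rarg, a retinoic acid receptor, had 108.20 and 132.71 FPKM (0.29, 0.25 to 0.34), and Rarb, a receptor that is itself induced by retinoic acid, had 0.10 and 0.26 FPKM (1.43, 0.12 to 2.92). Cyp26a1, which breaks down retinoic acid and is induced by it, had 0.41 and 0.39 FPKM from 17 and 16 reads.

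Genes of the Polycomb complexes, which act on Hox clusters, had slightly higher sums in PB-TERRA, and their part in the Hox difference was not tested. Of 11 genes of Polycomb repressive complex 2, 9 were higher and 2 lower, with a log2 ratio of summed reads of 0.11 (0.09 to 0.12). Suz12 had 35.41 and 41.73 FPKM, Eed 94.04 and 109.57 FPKM and the methyltransferase Ezh2 52.17 and 55.21 FPKM. Of 20 genes of Polycomb repressive complex 1, 14 were higher and 6 lower (0.07, 0.05 to 0.09). Phc1 was the most abundant of them, and Bmi1 had 2.63 and 3.71 FPKM (0.50, 0.25 to 0.75).

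**Figure D4:**
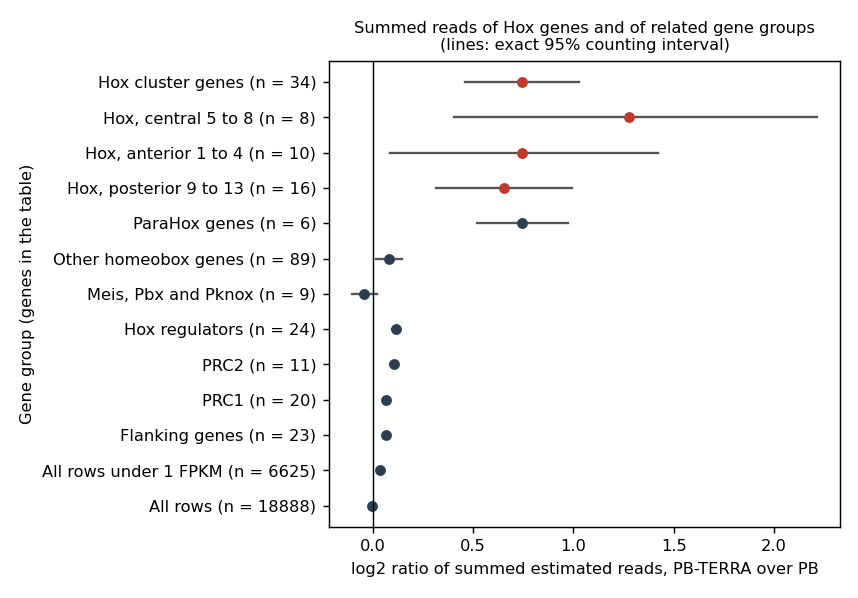
Log2 ratio of summed estimated reads, PB-TERRA over PB, for Hox genes (red) and other gene groups (dark), with exact 95% counting intervals as lines, which for the larger sums are narrower than the points. The 34 Hox genes lie at 0.74 and the 6 ParaHox genes at 0.75. Of the groups plotted, the central Hox genes lie highest at 1.28. The anterior Hox genes lie at 0.75 and the posterior at 0.65. The plotted groups other than Hox and ParaHox genes lie between -0.04 and 0.11. The noncoding RNAs and the cell type markers are not plotted.

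The labelled cell type was checked against marker lists. All 14 mESC markers had at least 1 FPKM in both libraries, and 9 were higher and 5 lower in PB-TERRA. Nanog had 186.41 and 173.37 FPKM, and Tbx3 had 16.76 and 26.10 FPKM (log2 ratio of reads 0.64, 0.56 to 0.72). Markers of other cell types differed between the libraries to different degrees. All 12 primitive endoderm markers were higher in PB-TERRA, with a summed level of 40.14 and 50.06 FPKM (log2 ratio of summed reads 0.28, 0.23 to 0.32). The interval lay above 0 for 8 of them and below 0 for 0, beside 12.9% and 12.2% of all genes. Single ratios of reads ran from 0.12 in Lama1, the highest of them in PB, to 1.51 in Foxa2 (0.30 to 2.88). Pdgfra (0.98, 0.59 to 1.39) and Gata6 (0.89, 0.52 to 1.26) came next to Foxa2. Of 15 fibroblast markers 7 were higher and 8 lower, with sums of 36.55 and 38.19 FPKM and Prrx1 at the floor in PB. Of 13 mesoderm markers 6 were higher and 7 lower (27.47 and 26.35 FPKM, Msgn1 at the floor in PB). Of 12 neural markers 7 were higher and 3 lower, but their sum was 90.25 and 78.70 FPKM, and Dcx was at the floor in both libraries and Neurog2 and Olig2 in PB. The part of any of these cell types in the Hox difference was not tested.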

How the data were processed

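RNA of 46C mESCs with the PB vector or PB-TERRA was sequenced by the authors on a BGISEQ-500, 1 library per condition. Per the labels, the submitters' processing notes name HISAT, Cufflinks and mm9, with no role. The deposited table lists per gene a length and an expression value for each library, read here as FPKM because the header names no unit. Its 4 columns of the authors' own comparison (log2 fold change, FDR, call and p-value) were not used.

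FPKM of 1 read was fitted as a constant over gene length minus an offset, by a grid search on values from 0.03 to 0.4 FPKM in genes of 300 to 1500 bases. A value counted as whole within its rounding of 0.005 FPKM plus 0.01 reads. The fit gave constants of 40.34 in PB and 40.08 in PB-TERRA and an offset of 116 bases in both, whose origin is not known. Reads were rounded to whole numbers, with the floor as 0. Log2 ratios are PB-TERRA over PB, of FPKM + 0.1 (which understates the change of low genes) or of reads scaled by these constants. Read ratios have exact binomial (Clopper-Pearson) intervals. The filter was 1 FPKM in 1 library or both, and the fold a log2 ratio of 1. The computations were tested on simulated data.

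As designed, no test was made, since each condition has 1 library. Genes named are those with at least 0.1 FPKM in 1 library, the highest of each cluster, those at the floor in 1 library only and those past the fold. Other Hox genes, and of other lists further genes than the highest and those past the fold, were named after their values were seen. Of the Hox genes, 1 is not reported here and was left out of every Hox sum, count and plot. The Hox genes and all lists were chosen with earlier results of these data known. Annotated overlaps, chromosomes and promoters came from RefSeq on GRCm38.p6, which is not the build of the notes and was not used for coordinates of the table. Scripts ran in Python 3.11.15 with scipy 1.17.1, pandas 2.3.3, numpy 2.4.6 and, for plots, matplotlib 3.10.9.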

Additional observations from a re-analysis of the deposited data

How the results depend on the processing

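The sums of each cluster and of the 34 Hox genes were recomputed with other pseudocounts, with centring, with the floor as 0, without the highest gene (Hoxb 0.36 rather than 0.56 without Hoxb9, Hoxc 0.44 rather than 0.69 without Hoxc13) and from estimated reads, and these log2 ratios ran from 0.15 to 1.41. With 1 FPKM added, the Hoxa ratio was 0.15 rather than 0.27, the Hoxb ratio 0.36, the Hoxc ratio 0.40 and the Hoxd ratio was 0.46 rather than 1.03. A limit of 0.05 FPKM in place of the floor gave 17 Hox genes in PB and 9 in PB-TERRA rather than 9 and 4, beside 11.7% and 11.3% of all genes and 33.3% and 32% of those under 1 FPKM. The count of Hox genes past the fold was 0 with the filter, 1 without it, and 17 without it and with 0.01 FPKM added. The 17 comprise 13 with the higher value in PB-TERRA, beside 6.14% of all genes and 16.6% of those under 1 FPKM. The other 4 had the higher value in PB, beside 5.45% and 14.5%. Of the partners, regulators, Polycomb, ParaHox, other homeobox and flanking genes, 86 passed the filter. Past the fold was 1 of these, beside 0.913% of all genes past the filter, and 0 with 1 FPKM added. Without the filter it was 6 of 178 genes in either direction, beside 1.39% of all genes higher by that much and 1.34% lower. The filter on a mean of at least 5 FPKM left 0 Hox genes and gave no value. The reads with 1 read given to the floor of the 3 longest genes, the total without Hoxb9 and Hoxc13, and the small pseudocount without the filter were chosen after seeing the data. No paired analysis was possible because each condition has 1 library. Depth limits the single genes: 26 of 34 had fewer than 10 reads in each library.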

Other observations

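Among homeobox genes of other families, Nkx6-3, a gene of the stomach lineage, was past the filter and the fold, with 1.41 FPKM in PB and 3.23 in PB-TERRA, from 74 and 171 reads (log2 ratio of reads 1.20, 95% interval 0.80 to 1.61). Shox2, a gene of limb and heart development, had 0.05 and 0.29 FPKM, from 3 and 15 reads (2.31, 0.49 to 4.74). Nkx1-1 had 0.07 and 0.27 FPKM from 2 and 8 reads, and Lmx1b had 0.22 and 0.04 FPKM from 6 and 1 reads, and both intervals included 0. Otx2, the homeobox gene of the anterior epiblast and the most abundant of this list, had 11.64 and 9.21 FPKM (-0.34, -0.51 to -0.16). Each is a difference between 2 libraries with no replicate check.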
